A study of Mus musculus with 6 samples.

Results

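A list of 33 genes covered enzymes of the tricarboxylic acid (TCA) cycle, of pyruvate entry and of glutamine and aspartate exchange with it. The list was chosen by name, with earlier results of these data known, and set against the 10526 genes that could be tested. The mRNA was measured in mouse Ba/F3-N cells, a bone marrow-derived line. This line was made from the interleukin-3 dependent pro-B line Ba/F3 by transformation with oncogenic NRAS-G12D. Cells of 1 group (3 arrays) received 1 µM NADA (N-arachidonoyl dopamine, a fatty acid amide of dopamine and a ligand of vanilloid and cannabinoid receptors). Cells of the other group (3 arrays) received the same volume of vehicle, and both were collected after 12 hours in medium with serum. All samples share the NRAS transformation, so no untransformed cells enter, and the labels do not say whether the line is a single clone. Each array gave 1 deposited intensity, on a linear scale, for each probe set, a group of oligonucleotides that reports 1 transcript region. The brightest probe set paired with a single gene stood for that gene. Probe sets whose average fell under 38.6 (the median probe set) were called dim and left out of the test, and 31 of the 33 genes passed. All 31 were above that limit in both groups.

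The TCA cycle oxidises acetyl groups in the mitochondrial matrix and passes the electrons to the respiratory chain, and its intermediates leave for the synthesis of lipids, aspartate and nucleotides. Pyruvate enters as acetyl-CoA through the pyruvate dehydrogenase complex, which kinases (PDK) switch off by phosphorylation and phosphatases (PDP) switch on again, or as oxaloacetate through pyruvate carboxylase. In fast-growing blood cells glutamine is a large second source of carbon: it is converted to glutamate and then, by glutamate dehydrogenase or a transaminase, to the cycle intermediate 2-oxoglutarate. Several steps have a mitochondrial and a cytosolic enzyme encoded by different genes, and the cytosolic NADP-dependent ones, IDH1 and malic enzyme 1, supply NADPH.

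Most of these genes were lower after NADA, and 6 were higher: Idh1, Me1 and Mdh1 of the cytosol, glutamine synthetase Glul, and the mitochondrial subunit genes Idh3g and Pdhb. Calls rest on limma, with p-values adjusted by Benjamini-Hochberg over all genes tested and a threshold of 0.05, and rose and fell are written of called genes. Of the 31 tested genes 23 fell, 6 rose and 2 were not called, so that 93.5% were called, against 73.3% of all genes tested. In the direction of lower expression 74.2% of the list fell against 37.5% of all genes, and in the direction of higher expression 19.4% rose against 35.8%. The median log2 fold change of the list was -0.42, against 0.0089 over all genes. The 3 NADA arrays did not overlap the 3 vehicle arrays for 29 of the 31 genes, against 75.9% of all genes. Most changes were modest. Only 5 genes of the list (16.1%) were called with at least a 2-fold difference, against 10.9% of all genes: Idh3a, Pdp1 and Me2 were lower, Idh1 and Me1 higher.

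**Figure D1:**
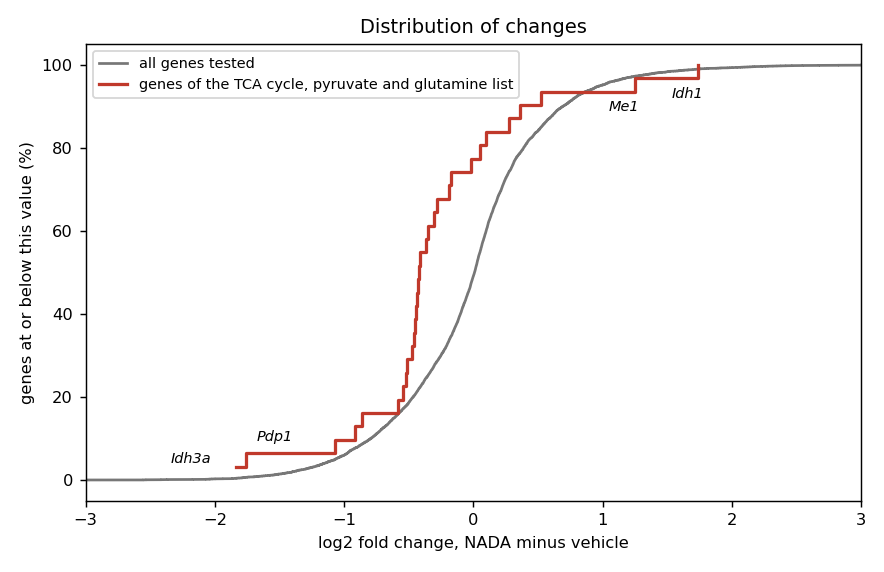
Share of genes (vertical axis, percent) at or below each log2 fold change of NADA minus vehicle (horizontal axis, shown from -3 to 3), for all 10526 genes tested (grey) and the 31 tested genes of the list (red). The red curve climbs mostly below 0, with its median at -0.42, while Idh1 and Me1 stand at its upper end.

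Control probe sets differed between the groups as well. The bacterial poly-A RNAs, which are spiked into the sample, averaged 8.72 ± 0.21 on NADA arrays (log2 intensity, SD, n = 3) and 8.14 ± 0.01 on vehicle arrays, and scaling every array to them lowers every log2 fold change by 0.58 and the median of all genes to -0.57. Changes below are those of the values as deposited, which is to say relative to the bulk of genes, and the value after poly-A scaling is given where the direction turns. By the call rule above 2 of the 31 genes then stood higher and 27 lower, against 6.96% and 76.1% of all genes (83.1% called either way), though an error of the scaling is shared by all genes of an array. For Actb the 3' probe sets exceeded the 5' ones by 1.06 ± 0.05 (log2) on NADA arrays and by 0.67 ± 0.04 on vehicle arrays. The hybridization control probe sets averaged 10.08 ± 0.05 (log2 intensity) on NADA arrays and 9.93 ± 0.10 on vehicle arrays. In each of these controls the groups did not overlap (two-sided exact permutation p = 0.1, the smallest that 3 against 3 arrays allow). Their part in the results was not tested. Of 14 genes looked at for Ba/F3 and pro-B identity 6 were above the dim limit, among them Ptprc and the interleukin-3 receptor genes Il3ra, Csf2rb and Csf2rb2. The early B-cell genes Pax5, Ebf1, Cd79a, Vpreb1, Rag1 and Dntt were dim on average in both groups, whereas the B-lineage genes Cd79b (mean 111 in NADA and 81.0 in vehicle) and Igll1 (49.9 and 43.8) were above the limit in both. The summed intensity of the identity genes ranged from 13809 to 13886 in NADA and from 6009 to 6243 in vehicle. Most of it came from Ptprc (means 6447 and 4034), Csf2rb2 (3571 and 703) and Csf2rb (3337 and 989). That of 3 macrophage genes ranged from 364 to 376 and from 171 to 198, with Cd14 dim and most of it from Adgre1 (280 and 109). T and natural killer cell genes (176 to 187, and 169 to 182) and fibroblast and epithelial genes (179 to 203, and 195 to 209) overlapped between groups. The part of these differences in the results was not tested, and in bulk RNA a change in the make-up of the cells and a change of RNA per cell cannot be told apart.

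**Figure D2:**
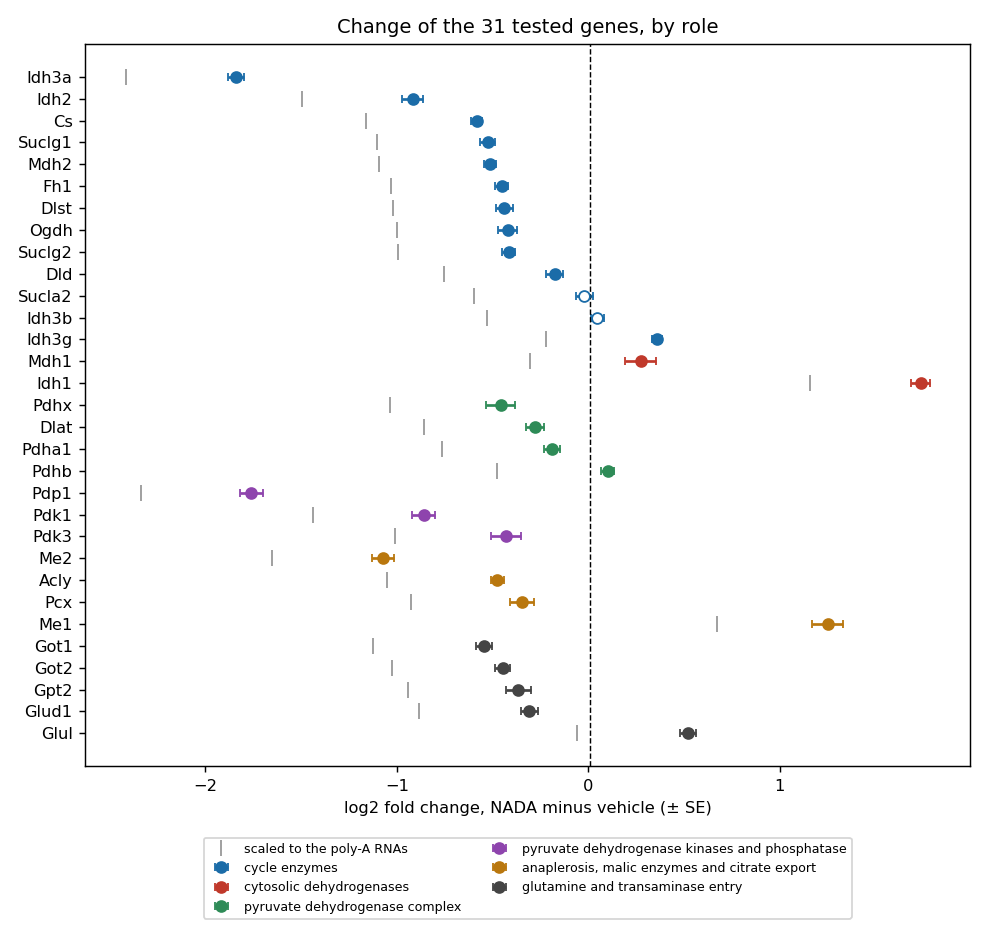
Log2 fold change of NADA minus vehicle (horizontal axis) for each of the 31 tested genes, coloured by role, with the standard error of the fit (bars; 3 arrays per group). Filled circles are called genes and open circles are not. The dashed line marks the median of all genes, 0.0089, and grey ticks give the value after scaling to the poly-A RNAs, where Idh1 and Me1 alone stay above 0.

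Among the pairs of related genes compared here, Idh1 against Idh2 and Me1 against Me2 moved farthest apart, and the sequences before the starts of Idh1, Idh2 and Me1 are given to show what precedes each gene. They are 250 bases directly before an annotated start from RefSeq (GRCm38.p6), read on the strand of the gene, which for all 3 is the minus strand. The windows are chr1:65186480-65186729 for Idh1, chr7:80115351-80115600 for Idh2 and chr9:86695915-86696164 for Me1. Capitals mark matches to the motifs named after them.
Idh1: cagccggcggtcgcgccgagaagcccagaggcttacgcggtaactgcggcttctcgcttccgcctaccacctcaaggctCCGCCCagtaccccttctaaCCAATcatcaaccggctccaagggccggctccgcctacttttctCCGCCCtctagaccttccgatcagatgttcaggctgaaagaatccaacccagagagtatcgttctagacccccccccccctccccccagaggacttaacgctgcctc
Idh2: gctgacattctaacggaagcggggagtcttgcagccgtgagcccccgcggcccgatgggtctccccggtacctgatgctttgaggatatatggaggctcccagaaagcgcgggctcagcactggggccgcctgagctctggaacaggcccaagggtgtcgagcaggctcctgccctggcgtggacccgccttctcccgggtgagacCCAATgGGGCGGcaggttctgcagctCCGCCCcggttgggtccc
Me1: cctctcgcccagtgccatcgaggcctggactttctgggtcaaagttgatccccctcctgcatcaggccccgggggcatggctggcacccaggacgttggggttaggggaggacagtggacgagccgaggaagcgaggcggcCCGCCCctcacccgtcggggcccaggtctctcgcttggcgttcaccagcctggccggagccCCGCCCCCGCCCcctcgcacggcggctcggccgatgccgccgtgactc

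For Idh2 the RefSeq gene extends further upstream than this window. Of the 6 motifs searched, these windows held GC boxes (GGGCGG, or CCGCCC on the other strand) and CCAAT boxes. Idh1 holds GC boxes that begin 171 and 107 bases before the start and a CCAAT box at 151. Idh2 holds a CCAAT box at 44 and GC boxes at 38 and 18, and Me1 holds GC boxes at 109, 48 and 42. The RefSeq table held a window for 30 of the 33 genes (none for Idh3a, Me2 and Pdp1). All 27025 windows of that table, 1 per gene and not limited to the 10526 genes tested here, were searched for comparison. Searched on both strands, a GC box was present in 20 of the 30 windows (66.7%) against 32.96% of the 27025. A CCAAT box was present in 16 (53.3%) against 34.5%. Windows of the tested genes alone were not compared. The E-box CACGTG was found in 2 windows, those of Pcx and Pdk2 (6.67% against 6.04%). The core of the antioxidant response element, TGACNNNGC, was found in 3, those of Dlst, Idh3g and Sucla2 (10.0% against 10.1%). Neither the estrogen-related receptor element TCAAGGTCA (0.366% of all windows) nor the NRF1 element (0.777%) was found in any of the 30. A match is a description of letters only.

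Enzymes of the cycle itself were mostly lower, and the NAD-dependent isocitrate dehydrogenase split by subunit. Of 13 mitochondrial cycle genes 10 fell (76.9%, against 37.5% of all genes), 1 rose (7.69%, against 35.8%) and 2 were not called, with a median log2 fold change of -0.44. Isocitrate dehydrogenase 3 is built of a catalytic alpha subunit with beta and gamma subunits that regulate it. The alpha subunit gene Idh3a had intensities of 551, 605 and 611 in NADA and 2088, 2056 and 2173 in vehicle. All NADA arrays were far below all vehicle arrays, at 28.0% of the vehicle level, a log2 fold change of -1.84 ± 0.04 (SE; adjusted p = 3.41e-15), which ranked 45 from the lowest of the 10526 genes. The gamma subunit gene Idh3g moved the other way, with 3422, 3347 and 3364 in NADA and 2630, 2641 and 2640 in vehicle. Its log2 fold change was 0.36 ± 0.03 (adjusted p = 4.26e-09), with no overlap, and turned to -0.22 after poly-A scaling. The beta subunit gene Idh3b overlapped between groups, with 2268, 2265 and 2157 in NADA and 2107, 2140 and 2227 in vehicle. It was not called (0.047 ± 0.03, adjusted p = 0.212). The other passing probe set of Idh3b, at 0.13, was called once types x and s were dropped, the designs that can bind several transcripts (adjusted p = 0.0035). Within an array the ratio of Idh3a to Idh3g was 4.58-fold lower in NADA, and that of Idh3a to Idh3b 3.70-fold lower, values that no array scaling changes.

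The remaining cycle genes changed less in size than Idh3a. Idh2, the mitochondrial NADP-dependent isocitrate dehydrogenase, changed by -0.92 ± 0.06, from 616, 562 and 586 in vehicle to 335, 312 and 289 in NADA, with no overlap. Citrate synthase (Cs), which joins acetyl-CoA and oxaloacetate, stood at 1334, 1320 and 1303 in NADA and 1974, 1986 and 1970 in vehicle, and changed by -0.58 ± 0.03. Malate dehydrogenase 2 (Mdh2, -0.51 ± 0.03) and fumarase (Fh1, -0.45 ± 0.03), which catalyse the last steps back to oxaloacetate, fell as well. Of the 2-oxoglutarate dehydrogenase complex, Ogdh, its decarboxylating subunit, changed by -0.42 ± 0.05 and the succinyltransferase Dlst by -0.44 ± 0.04. Dld, the dihydrolipoyl dehydrogenase that this complex shares with pyruvate dehydrogenase, fell less in size, by 0.18 on the log2 scale (adjusted p = 0.00207), and missed the threshold after quantile normalization (-0.098, adjusted p = 0.0517).

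Succinyl-CoA synthetase pairs a common alpha subunit, Suclg1, with a beta subunit that sets whether GTP (Suclg2) or ATP (Sucla2) is formed. Suclg1 changed by -0.52 ± 0.04 and Suclg2 by -0.42 ± 0.03, while Sucla2 was not called (-0.021 ± 0.04, adjusted p = 0.68). Sucla2 intensities were 1757, 1769 and 1567 in NADA and 1765, 1705 and 1688 in vehicle, so the groups overlapped. The log2 ratio of Sucla2 to Suclg2 was higher on every NADA array than on any vehicle array, by 0.39 ± 0.07 on average.

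Cytosolic counterparts of these dehydrogenases were higher, Idh1 by far more than Mdh1. Idh1, the cytosolic NADP-dependent isocitrate dehydrogenase, had intensities of 889, 844 and 845 in NADA and 265, 240.5 and 269.6 in vehicle. The groups lay far apart, and the log2 fold change was 1.74 ± 0.05 (3.33-fold, adjusted p = 3.09e-14), rank 113 from the highest. It stayed at 1.16 after poly-A scaling. Both passing probe sets of Idh1 are of type s, so it has no value without types x and s. Mdh1, the cytosolic malate dehydrogenase of the malate-aspartate shuttle, had 3878, 3887 and 5282 in NADA and 3424, 3594 and 3666 in vehicle. Here the third NADA array stood apart from the others. The log2 fold change of 0.27 ± 0.08 (adjusted p = 0.00664) was 0.13 without that array, turned to -0.30 after poly-A scaling, and rests on a probe set of type x. Other passing probe sets of Mdh1 gave 0.12 and 0.10.

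**Figure D3:**
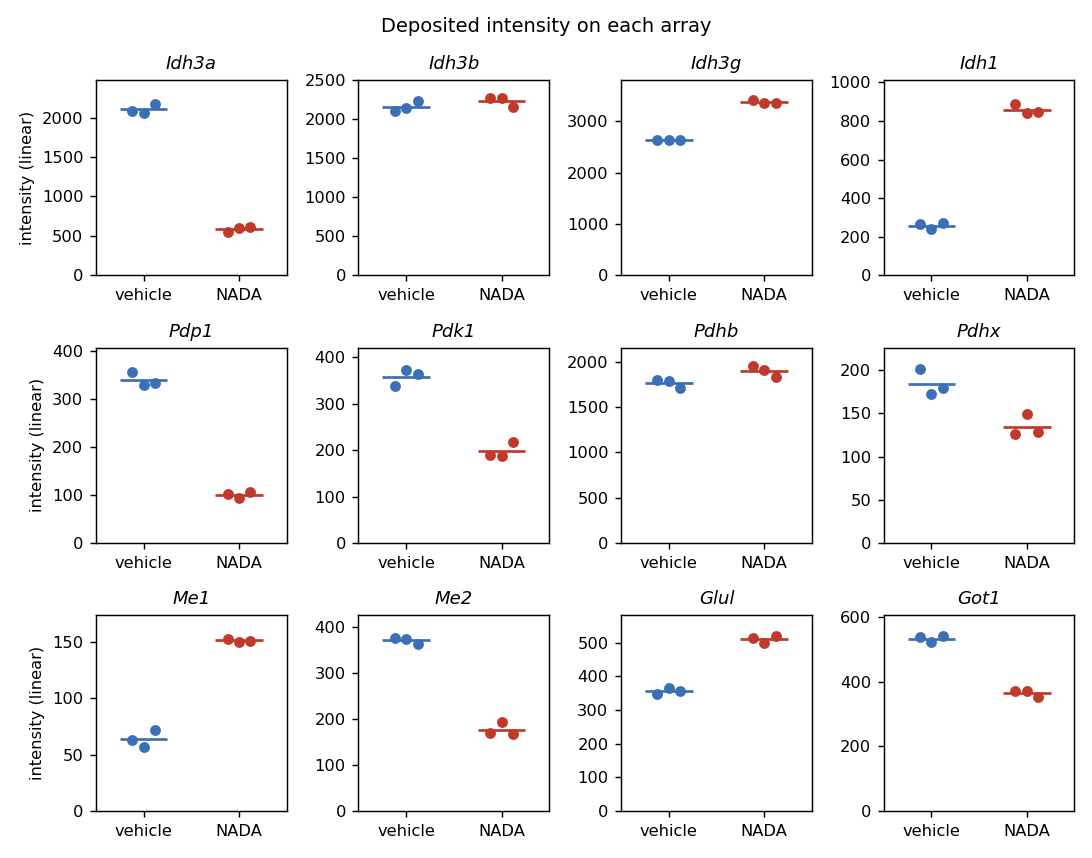
Deposited intensity (vertical axis, linear, from 0) of 12 genes on each of the 3 vehicle arrays (blue) and 3 NADA arrays (red), with horizontal bars at the geometric mean of a group. The panels of Idh3a, Idh3b and Idh3g show subunits of the same enzyme with a fall to 28.0% of vehicle, an overlap and a rise, and Idh1 stands at 333% of vehicle.

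Around pyruvate dehydrogenase the kinases Pdk1 and Pdk3 and the phosphatase gene Pdp1 had a median log2 fold change of -0.86 and the 4 genes of the complex one of -0.23. Pdp1, the catalytic subunit of the phosphatase that reactivates the complex, had intensities of 102.5, 93.4 and 105.9 in NADA and 357, 330.0 and 333 in vehicle. It was 3.39-fold lower without overlap (log2 fold change -1.76 ± 0.06, adjusted p = 2.64e-13), rank 70 from the lowest of all genes tested. Pdk1, a kinase that inactivates the complex, had 189, 188 and 217 in NADA and 338, 373 and 364 in vehicle, a log2 fold change of -0.86 ± 0.06 with no overlap. Pdk3, another kinase of the family, had 345, 364 and 273 in NADA and 428, 435 and 450.1 in vehicle (-0.43 ± 0.08). So Pdp1 and both measured kinases fell. Of the other phosphatase genes, taken from the wider list described last, Pdp2, a second catalytic subunit, fell too (-0.55 ± 0.06), while Pdpr, the regulatory subunit, rose (0.29 ± 0.06, adjusted p = 2.75e-04, and -0.28 after poly-A scaling). Pdp2 and Pdpr were named after their values were seen. Pdk2 (at most 7.69 on any of the 6 arrays) and Pdk4 (at most 5.02) were dim in both groups and were not tested. Without the dim filter their log2 fold changes were 0.0085 (adjusted p = 0.96) and -0.048 (adjusted p = 0.808).

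Of these 4 genes of the complex 3 fell (75%, against 37.5% of all genes) and 1 rose (25%, against 35.8%). Pdhx, which anchors the Dld subunit, had 126, 149 and 128 in NADA and 202, 173 and 179 in vehicle, and changed by -0.46 ± 0.07 (adjusted p = 3.73e-05). The acetyltransferase Dlat changed by -0.28 ± 0.05 and Pdha1, the alpha subunit of the decarboxylase that the kinases phosphorylate, by -0.19 ± 0.04. Pdhb, the beta subunit of the same decarboxylase, had 1948, 1913 and 1830 in NADA and 1803, 1789 and 1712 in vehicle. Its groups stood close together without overlapping, and its rise was small (0.10 ± 0.03, adjusted p = 0.015). It missed the threshold when NADA replicate 1 (0.082, adjusted p = 0.0623), NADA replicate 2 (0.095, adjusted p = 0.0553) or vehicle replicate 3 (0.078, adjusted p = 0.0913) was left out. It also missed it with median centring (0.066, adjusted p = 0.11) and with no intensity trend (adjusted p = 0.0656). The value turned to -0.48 after poly-A scaling.

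The malic enzymes, which turn malate into pyruvate, changed in opposite directions. Me1, the cytosolic NADP-dependent form, had intensities of 153, 150.5 and 151 in NADA and 63.4, 56.7 and 72.3 in vehicle. The NADA arrays were all above the vehicle arrays, with a log2 fold change of 1.25 ± 0.08 (2.38-fold, adjusted p = 5.11e-10), and 0.67 after poly-A scaling. Me2, a mitochondrial form that uses NAD, had 169, 194 and 168 in NADA and 376, 373 and 364 in vehicle, at 47.6% of the vehicle level (-1.07 ± 0.06, adjusted p = 6.62e-11). Acly, which splits exported citrate into acetyl-CoA for lipid synthesis and histone acetylation, changed by -0.47 ± 0.03, from 1436, 1485 and 1440.0 in vehicle to 1022, 1053 and 1064 in NADA. Pyruvate carboxylase (Pcx), which refills oxaloacetate, changed by -0.35 ± 0.06, from 174, 191 and 177 to 137, 151 and 137.

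Among 5 genes of glutamine and transaminase entry 4 fell (80%, against 37.5% of all genes) and 1 rose (20%, against 35.8%). Glul, glutamine synthetase, makes glutamine from glutamate and ammonia. It had intensities of 513, 498 and 519 in NADA and 346, 364 and 358 in vehicle, a rise of 0.52 ± 0.04 without overlap (adjusted p = 1.46e-08) that turned to -0.058 after poly-A scaling. The aspartate transaminases Got1 of the cytosol and Got2 of mitochondria both fell. Got1 had 373, 372 and 353 in NADA and 538, 523 and 542 in vehicle (-0.55 ± 0.04), and Got2 had 866, 928 and 854 against 1192, 1239 and 1178 (-0.45 ± 0.04). Glud1, glutamate dehydrogenase, changed by -0.31 ± 0.04, and Gpt2, the mitochondrial alanine transaminase, by -0.37 ± 0.07. The NADA arrays of both lay below all vehicle arrays.

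Ratios of 2 genes within an array do not move with the scaling of the array, and 10 of the 12 ratios listed could be measured, since Pdk2 was dim. In 8 of the 10 the NADA arrays did not overlap the vehicle arrays. Of all genes tested, taken singly, 75.9% did not overlap, and no such share was computed for ratios of other genes. The pairs were also listed with earlier results of these data known, so the count does not set them apart. The ratio of cytosolic to mitochondrial isocitrate dehydrogenase, Idh1 to Idh2, was 6.29-fold higher in NADA (log2 difference 2.65 ± 0.05, SE over arrays), and that of Me1 to Me2 5.00-fold higher (2.32 ± 0.13). The ratio of Mdh1 to Mdh2 was 1.73-fold higher (0.79 ± 0.11), whereas the transaminases Got1 and Got2 did not separate (-0.098 ± 0.05, exact p = 0.2, with groups overlapping). Glul relative to Glud1 was 1.77-fold higher (0.83 ± 0.08), and Pdk3 relative to Pdp1 2.51-fold higher (1.33 ± 0.18). Pdk1 relative to Pdha1 was lower, by a log2 difference of -0.67 ± 0.12, as was Pcx relative to Pdha1 (-0.16 ± 0.07), and Pdk1 relative to Pdk3 overlapped (-0.43 ± 0.20, exact p = 0.2). The separated ratios, that of Sucla2 to Suclg2 among them, each had a two-sided exact permutation p of 0.1, the smallest 3 against 3 arrays can give, and 0.125 after Benjamini-Hochberg adjustment over the 10. None of the ratios could therefore pass 0.05.

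**Figure D4:**
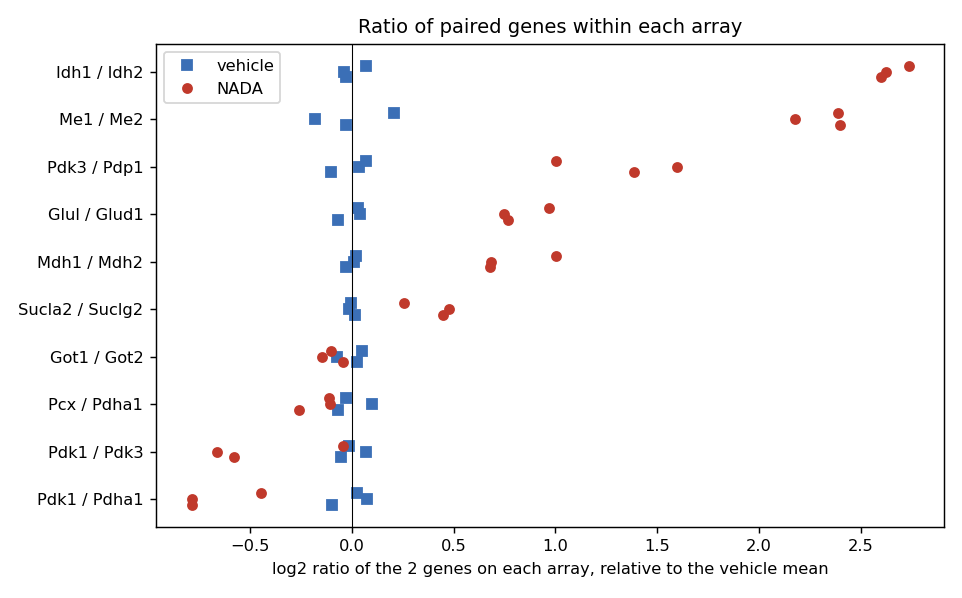
Log2 ratio of 2 genes on each array (horizontal axis), set to 0 at the vehicle mean, for the 10 measured pairs; blue squares are vehicle arrays and red circles NADA arrays, 3 each. Idh1/Idh2 and Me1/Me2 lie farthest to the right, at mean differences of 2.65 and 2.32, while Got1/Got2 and Pdk1/Pdk3 overlap.

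Probe sets of a gene that passed the dim filter pointed the same way. Beside the brightest, 22 of the genes had a total of 33 further passing probe sets, and all 33 had the sign of the brightest, 24 of them within 0.25 of it on the log2 scale. For Idh3a the others gave -1.82, -1.38 and -0.32, the last from a type x probe set (mean intensity 86.6). For Pdp1 the other gave -2.29, for Idh1 1.76 and for Pdk1 -0.74 and -0.70. Me1 was lower in size on its other probe set (0.69), Idh2 too (-0.28), and the other sets of Glul (0.072) and Ogdh (-0.091) overlapped between groups. For 7 of the genes the brightest probe set was of type x or s. Dim probe sets, not counted here, did not all keep the sign of the brightest. Without overlap, dim sets of Mdh1 (-0.34), Pdhb (-0.40), Got2 (0.22) and Sucla2 (0.16) were opposite in sign to the brightest. Another dim set of Mdh1 gave 0.39, also without overlap.

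**Figure D5:**
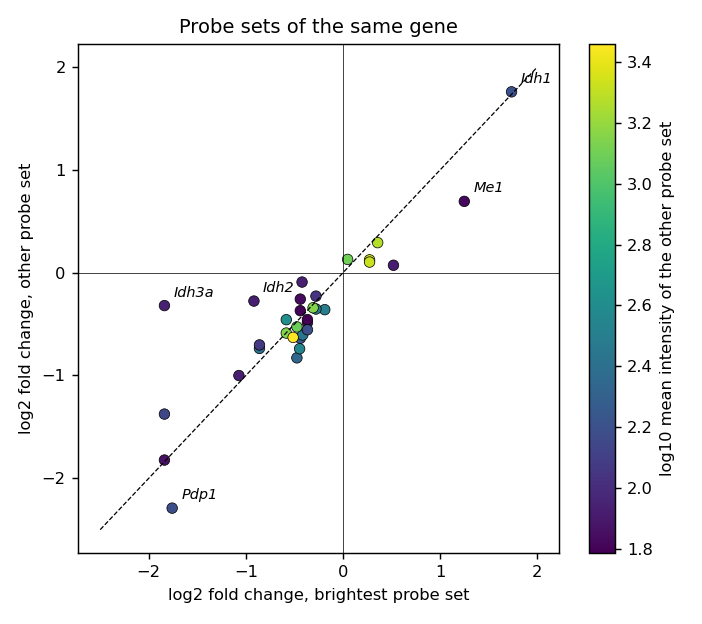
Log2 fold change of the brightest probe set of a gene (horizontal axis) against that of each of its 33 other passing probe sets (vertical axis), coloured by the log10 mean intensity of the latter; the dashed line marks equality. All points lie in the quadrants of equal sign, and the labelled points of Idh3a, Idh2 and Me1, with mean intensities of 86.6, 85.2 and 66.1, lie farthest from the dashed line.

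Other genes around the same reactions, taken from a list of 69, were read in the same way. Of the 61 paired with their own probe set 49 passed the dim filter, and of these 28 fell (57.1%, against 37.5% of all genes), 12 rose (24.5%, against 35.8%) and 9 were not called, with a median of -0.19. The share called in either direction was 81.6%, against 73.3% of all genes. Among 7 measured carriers of mitochondrial metabolites 6 fell (85.7%, against 37.5% of all genes) and 1 was not called (median -0.41). The lowest value of the list was that of Lipt2, the octanoyltransferase that starts lipoate synthesis, the cofactor of the pyruvate and 2-oxoglutarate dehydrogenase complexes. It had 51.0, 68.0 and 64.5 in NADA and 275, 245 and 297 in vehicle (-2.16 ± 0.10, adjusted p = 5.27e-12), rank 17 from the lowest of all genes. Sdhaf1, an assembly factor of succinate dehydrogenase, followed with -1.48 ± 0.06, the lactate and pyruvate transporter Slc16a1 with -1.44 ± 0.03, the glutamine transporter Slc1a5 with -1.36 ± 0.06 and lactate dehydrogenase A (Ldha) with -1.28 ± 0.03. For each of these 5 the NADA arrays lay below all vehicle arrays.

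Of the same list the cystine and glutamate exchanger Slc7a11 was highest, with 185, 196 and 208 in NADA and 79.3, 79.3 and 82.1 in vehicle (1.29 ± 0.06, adjusted p = 1.56e-11). Bckdha, the alpha subunit of branched-chain keto acid dehydrogenase, rose by 1.07 ± 0.07 and Nnt, which makes mitochondrial NADPH from NADH, by 0.81 ± 0.07. Asl, argininosuccinate lyase, which releases fumarate, rose by 0.63 ± 0.05 and Gfpt1, which uses glutamine to make hexosamines, by 0.59 ± 0.04. After poly-A scaling Nnt, read on a type x probe set, stood at 0.23 and was not called. Asl and Gfpt1 then stood at 0.056 and 0.016, not called either. As in isocitrate dehydrogenase 3, subunits of 1 complex differed. Of branched-chain keto acid dehydrogenase Bckdha rose while the beta subunit Bckdhb changed by -0.95 ± 0.05. Of succinate dehydrogenase Sdhb fell (-0.70 ± 0.04), Sdhd fell (-0.19 ± 0.03), Sdhc was not called (-0.077 ± 0.04) and Sdha rose (0.17 ± 0.03, and -0.41 after poly-A scaling). These subunits were singled out after their values were seen.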

How the data were processed

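RNA of 3 NADA and 3 vehicle samples was hybridised to 1 Affymetrix mouse expression array each. Each deposited intensity is linear, 1 per probe set, with array medians of 37.9 to 39.1. The submitters' processing notes list MAS5 and RMA without version or role, and the sources used here do not say how the authors normalized between arrays. No label gives a batch or separate cultures, so p-values measure the spread between arrays, which may be technical. The number of arrays limits the precision.

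Of 45101 probe sets 64 were controls, 34945 had 1 gene in the platform annotation, 932 several and 9160 none. Genes were matched by identifier to RefSeq symbols (34741 probe sets). The geometric mean intensity set the dim limit. Log2 intensities were fitted with limma 3.58.1 (lmFit, then eBayes with trend) under R 4.3.3, with group as the only term, two-sided, and adjusted over 10526 genes. On simulated data with 10526 genes and independent noise, 50 genes each were changed by 1.2-, 1.3-, 1.5- and 2-fold. Of these 58%, 80%, 96% and 100% were recovered, and 5.11% of calls were false. Far fewer genes changed there than the 73.3% called in these data, so these shares need not hold here. Plots were drawn with matplotlib 3.10.9.

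The genes, lists, pairs and alternatives were chosen with earlier results of these data known. Every array is given for the 3 largest changes and the largest in each direction within a role, and 5 highest and 5 lowest genes of the wider list are named. Other genes given by array, the subunit ratios of isocitrate dehydrogenase 3, the motifs and the 3 printed promoters were chosen after the values were seen.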

Additional observations from a re-analysis of the deposited data

How the results depend on the processing

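Alternatives covered normalization between arrays, treatment of low values, the dim filter, the variance model, the joining of probe sets, the replicate number and leaving out each array. The count of 23 genes that fell ranged from 22 to 27 over them, and that of 6 that rose from 2 to 7. Scaled to the poly-A RNAs, 733 genes rose and 8009 fell over all genes, and 2 members and 2 other genes of the pathway rose. The error of that scaling is shared by all genes of an array, so its p-values are not given, and calls made from them share that error. There Idh3b (-0.53), Idh3g (-0.22), Mdh1 (-0.30), Pdhb (-0.48) and Glul (-0.058) turned negative. Sucla2 turned to 0.047 with quantile normalization and 0.023 with array weights, and ranged from -0.052 to 0.036 with single arrays left out. The ratio of Got1 to Got2 turned to 0.048 with probe sets averaged, where Got2 also takes in a probe set at -0.74. The call of Mdh1 was lost with a floor of 50 (adjusted p = 0.128) and without the intensity trend (adjusted p = 0.0516). Idh3b was called with quantile normalization (0.10), with probe sets averaged (0.088) and without NADA replicate 3 (0.071). Where not said, the cause was not tested.

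The deviations of same-numbered arrays had correlations of 0.16, -0.10 and 0.02. With so few arrays in each group, these values cannot decide whether same-numbered arrays shared a batch or culture. The labels do not state it either. With the replicate block 3782 genes rose and 3960 fell, and 6 and 23 members did. Dim signal limits Pdk2 and Pdk4.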

Other observations

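The array carries control probe sets along the transcript of pyruvate carboxylase, Pcx, which no comparison above uses. On the log2 intensity scale the 3' set averaged 7.03 ± 0.13 on NADA arrays (SD, n = 3) and 7.30 ± 0.01 on vehicle arrays, and the 5' set 5.76 ± 0.09 and 6.06 ± 0.10. Both were lower in NADA without overlap (two-sided exact permutation p = 0.1, the smallest possible), by 0.26 and 0.31 on the log2 scale. Of the sets labelled MA and MB, MB, which is dim, was lower without overlap (4.64 ± 0.16 and 4.84 ± 0.03, exact p = 0.1), and MA overlapped (6.16 ± 0.06 and 6.21 ± 0.05, exact p = 0.4). The log2 ratio of 3' to 5' signal of Pcx was 1.28 ± 0.20 in NADA and 1.23 ± 0.08 in vehicle, with overlap (exact p = 0.9), whereas that of Actb did not overlap between groups.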
